A study of Mus musculus with 8 samples.

Results

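Notch receptors and ligands were followed in RNA of mouse pancreatic buds. The 9 genes were the 4 receptors Notch1, Notch2, Notch3 and Notch4, the delta-like ligands Dll1, Dll3 and Dll4, and the jagged ligands Jag1 and Jag2. They were taken by symbol, each with 1 singly named probe set, from 19938 genes measured on Affymetrix mouse gene 1.0 ST arrays. Buds were dissected from embryos at e12.5. Buds of 3 embryos made the VEGF pool, with Pdx1-tTA, a tetracycline transactivator under the Pdx1 promoter, together with TET-VEGF, a VEGF transgene that it drives. The control pool came from 3 littermates with Pdx1-tTA and no TET-VEGF, so both fresh pools carried the transactivator. Wild type buds of the same age, 5 per pool, were explanted and kept for 2 days with VEGFR2i, an inhibitor of VEGF receptor 2, or with vehicle. Each pool was hybridized to 2 arrays, the second a technical repeat, giving 8 arrays of 4 pools. With 1 pool per condition there was no biological replicate, no p-value for a condition was possible, and every SD (n = 2 arrays) covers hybridization error only.

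Notch receptors are single-pass membrane proteins that bind ligands on neighbouring cells, after which proteases free an intracellular part that joins the DNA-binding protein Rbpj and switches on genes of the Hes and Hey families. In the early pancreas, Notch signalling between epithelial cells limits how many progenitors turn on Neurog3 and become endocrine. In growing vessels, Dll4 and Notch signalling restrain tip cell formation and take part in arterial fate. From such textbook expression the members were put in 3 classes. Notch4 and Dll4 of endothelium and Notch3 of mural cells were called vascular. Notch2, Dll1 and Dll3 were called epithelial, and Notch1, Jag1 and Jag2, which are known from both vessels and epithelium, were called shared. A class name is a label only, and the cells that gave each RNA were not tested.

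The direction in the explants goes against the labels. Cdh5, the cadherin of endothelial junctions, was at 8.66 in the explants labelled VEGFR2i and 4.56 in those labelled vehicle, although endothelial cells depend on the receptor that VEGFR2i inhibits. Explant directions below follow the labels unaltered and are not attributed to the inhibitor. The pancreatic identity of the pools was checked by Pdx1, at 6.38 in VEGF buds, 6.96 in control buds and 8.43 in both explant pools. The epithelial adhesion gene Epcam was at 8.05, 8.50, 9.74 and 9.92 in the VEGF, control, VEGFR2i and vehicle pools.

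The size rule called a gene higher or lower where 2 pools stood at least 1.5-fold apart in their means (a log2 difference of 0.585) with no overlap between their arrays. That size was reached by 4 to 25 of 19938 genes between the 2 arrays of a single pool. Levels are log2 expression, differences are between pool means on the log2 scale, and square brackets hold the range over the 4 pairs of arrays. Levels of different genes were not ranked, since probe sets differ in affinity. In bulk RNA, fewer cells of a type and less RNA per cell cannot be told apart.

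Dll4 and Notch4 were the members called in any comparison, both higher in the explants labelled VEGFR2i. No member was called between VEGF and control buds. The stretch around the start site is shown for these 2 genes because they were the members called. Each is 300 bases, from 250 before to 50 after the start, from RefSeq on GRCm38.p6. Dll4 lies on the plus strand at chr2:119325534-119325833 and Notch4 on the plus strand at chr17:34564045-34564344. Capitals mark GGAA, the core that ETS factors bind, on either strand (TTCC on the other).
Dll4: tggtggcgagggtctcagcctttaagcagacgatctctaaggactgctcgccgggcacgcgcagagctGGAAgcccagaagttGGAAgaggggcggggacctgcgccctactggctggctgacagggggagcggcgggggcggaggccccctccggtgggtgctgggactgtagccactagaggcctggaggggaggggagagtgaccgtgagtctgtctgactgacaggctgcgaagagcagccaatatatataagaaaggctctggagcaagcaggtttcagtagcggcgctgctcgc
Notch4: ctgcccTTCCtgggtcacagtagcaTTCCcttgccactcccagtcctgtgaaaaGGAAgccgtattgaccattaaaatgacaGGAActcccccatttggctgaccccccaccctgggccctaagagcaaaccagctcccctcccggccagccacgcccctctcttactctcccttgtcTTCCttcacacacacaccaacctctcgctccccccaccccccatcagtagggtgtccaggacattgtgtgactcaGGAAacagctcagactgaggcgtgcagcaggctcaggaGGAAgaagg

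The Dll4 window held 2 matches and the Notch4 window 7. Of 32851 promoters of the same length, 96% held at least 1 such match, the median being 3, and 8.02% held 7 or more. All 9 members had an entry, Dll1 with 2 start sites, which made 10 windows. None of these 10 held TGGGAA, the core bound by Rbpj, or the longer ETS core GGAAGT on either strand. Among all promoters 25.6% held the first and 23.8% the second. A match or its lack in this window says only which letters are there.

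**Figure D1:**
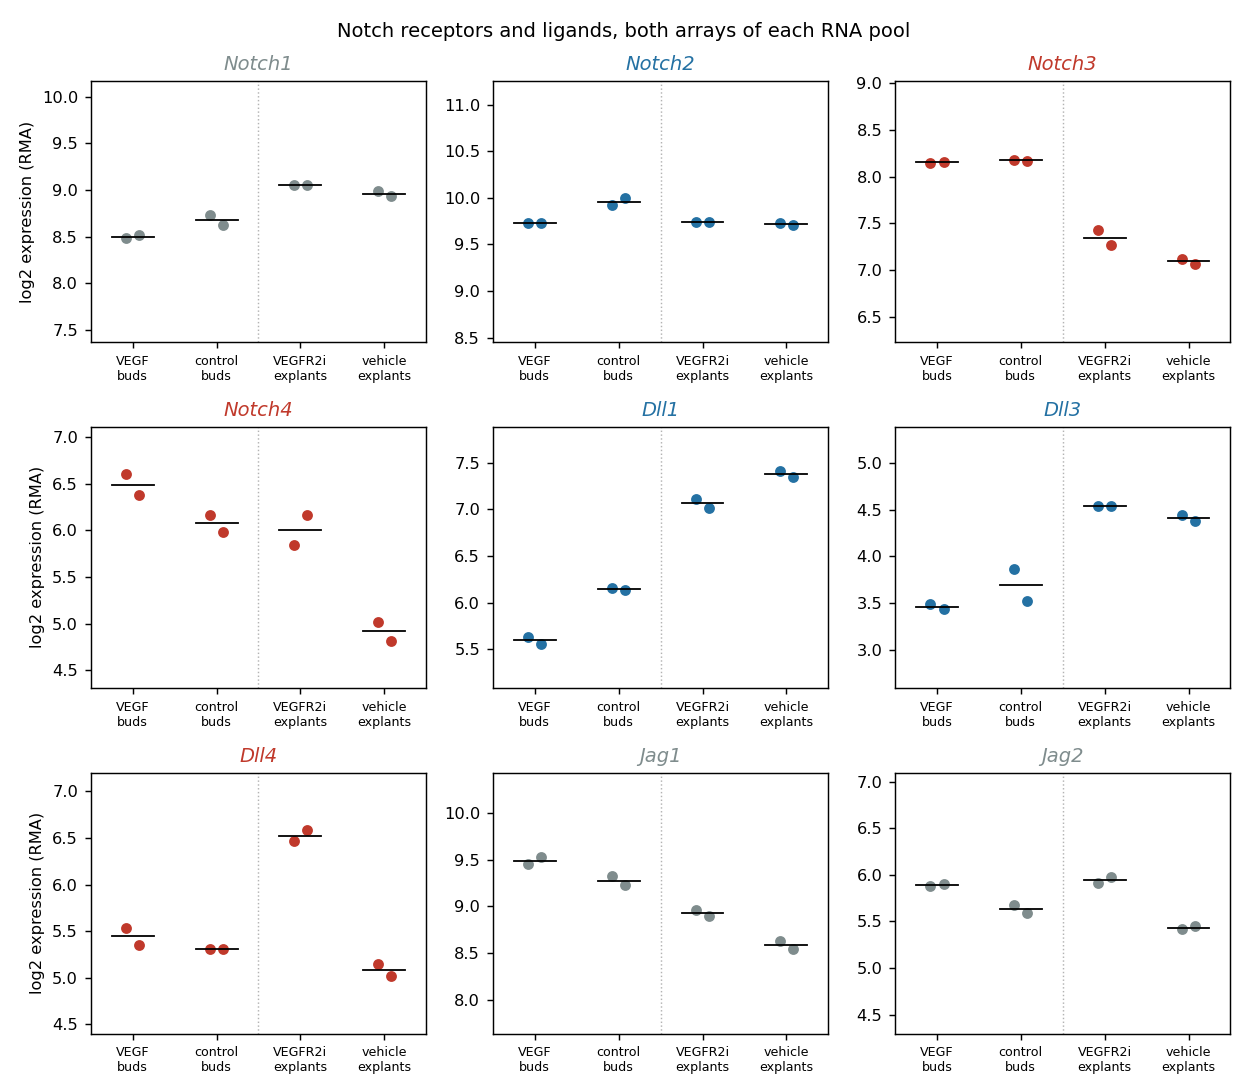
Log2 expression (vertical axis, each panel spanning the same number of log2 units) of the 9 members on both arrays (points) of the VEGF, control, VEGFR2i and vehicle pools, with pool means as bars and a dotted line between fresh buds and explants. Red titles are vascular, grey shared and blue epithelial members. Dll4 stands highest in the explants labelled VEGFR2i and Notch4 lowest in those labelled vehicle.

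Among the receptors in the fresh buds, Notch4, the receptor found mainly in endothelium, had the largest difference. Its arrays read 6.60 and 6.38 in the VEGF pool and 6.16 and 5.99 in the control pool. Both VEGF arrays lay above both control arrays, and the difference was 0.42 [0.21, 0.62], a 1.33-fold level short of the size rule. A difference at least that large in the same direction was seen for 1.36% of all genes.

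Notch3, the receptor of pericytes and vascular smooth muscle, read 8.15 and 8.16 in the VEGF pool and 8.18 and 8.17 in the control pool. Its difference of -0.02 [-0.03, -0.01] was the smallest of the 9. Median subtraction of each array moved it to 0.00, with the sign turned.

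Notch1, of the shared class, and Notch2, of the epithelial class, were on the other side. Notch1 read 8.48 and 8.51 in the VEGF pool against 8.73 and 8.62 in the control pool, a difference of -0.18 [-0.25, -0.10]. Notch2 read 9.73 on both VEGF arrays against 9.92 and 9.99, a difference of -0.23 [-0.27, -0.19]. Neither came near 1.5-fold, although the arrays did not overlap.

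Of the ligands in the fresh buds, Dll1, which epithelial and early endocrine cells present to their neighbours, had the largest difference of all 9 members. It read 5.63 and 5.56 in the VEGF pool and 6.16 and 6.13 in the control pool. The difference was -0.55 [-0.60, -0.50], a 1.47-fold lower level, just short of the size rule, and 1.05% of all genes had one as low. Without the first VEGF array it was -0.59 and Dll1 was called lower.

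Dll3, a delta-like protein that acts inside its own cell rather than as a presented ligand, read 3.48 and 3.44 against 3.87 and 3.52. These values lie near the dim end of the arrays. Of 1027 olfactory receptor genes, for which no role in the pancreas is assumed, 95% had a mean level under 3.36. The difference of -0.23 [-0.43, -0.04] was -0.06 without the first control array and therefore rested on that array.

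Dll4, the ligand of sprouting and arterial endothelium, read 5.53 and 5.36 in the VEGF pool and 5.31 on both control arrays. Its difference was 0.14 [0.04, 0.23], or 1.10-fold, and 0.05 without the first VEGF array. All 16 endothelial markers had a larger difference than Dll4 in this comparison. Of the 8 arterial markers, 6 had a larger one and 2 a smaller one.

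The jagged ligands shared their direction. Jag1, used by epithelium, endothelium and mural cells, read 9.46 and 9.53 against 9.33 and 9.23, a difference of 0.21 [0.13, 0.30]. Jag2 read 5.88 and 5.91 against 5.68 and 5.59, a difference of 0.26 [0.21, 0.32]. Both VEGF arrays lay above both control arrays for each of the pair.

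In all, 0 of 9 members met the size rule between VEGF and control buds, where 1.48% of all genes did, 0.552% higher and 0.933% lower. The arrays of the 2 pools did not overlap for any of the 9 members, 4 higher and 5 lower in the VEGF pool. That held for 45.3% of all genes, 23.7% higher and 21.6% lower, and the 2 arrays of a pool share 1 RNA. The median difference was 0.14 over the vascular members, 0.21 over the shared and -0.23 over the epithelial ones, against 0.00 over all genes. The vascular median thus lay 0.37 above the epithelial one. With 3 members per class each median is the value of a single member, here Dll4 for the vascular and Dll3 for the epithelial class.

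Cell type markers moved in the same comparison. Of 16 endothelial markers, 6 were higher and none lower, with a median of 0.54, and the list's summed level, the log2 of the summed linear values, was 12.36 to 12.39 in the VEGF arrays and 11.75 to 11.77 in the control arrays. Of 12 epithelial markers, 7 were lower and 0 higher. Their median was -0.64, with summed levels of 11.57 to 11.65 against 12.18 to 12.19. Of 9 measured endocrine progenitor markers, 7 were lower and 0 higher. Their median was -1.16, with summed levels of 8.52 to 8.55 against 9.34 to 9.37. Neurog3, which Notch signalling represses, led them at 4.45 against 7.08. Erythroid markers were higher in 5 of 7, with a median of 1.01 and summed levels of 13.02 to 13.04 against 12.45 to 12.49. Mesothelial markers were higher in 4 of 6, with a median of 0.66 and summed levels of 9.61 to 9.63 against 9.04 to 9.07. Acinar markers were lower in 3 of 10, with a median of -0.14 and summed levels of 11.00 to 11.06 against 11.98 on both control arrays. The 3 were Ctrb1 (-2.07), Clps (-1.87) and Cpa1 (-0.87). Others were near the dim end in both pools, such as Cpb1 at 2.98 against 2.97 and Cela3b at 3.24 against 3.32. The acinar median thus weighs dim genes with expressed ones. No marker was at 0, a value these arrays do not give. Their part in the members' differences was not tested.

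Set against those lists, Dll1 at -0.55 lay above 7 of 9 endocrine progenitor markers and above 8 of 12 epithelial markers, which is to say it was less far down than most of both. Notch2 at -0.23 had a smaller decrease than 11 of the 12 epithelial markers. Notch4 at 0.42 lay below 13 of 16 endothelial markers and near the arterial median of 0.39. Notch3 lay below 7 of 10 mural markers, whose median was 0.17. The 10 mesenchyme markers, of which 1 was lower and 0 higher, had a median of 0.13. The difference of Dll4 exceeded that of Dll1 by 0.69 [0.62, 0.75], and that of Notch4 exceeded that of Notch2 by 0.65 [0.41, 0.88].

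**Figure D2:**
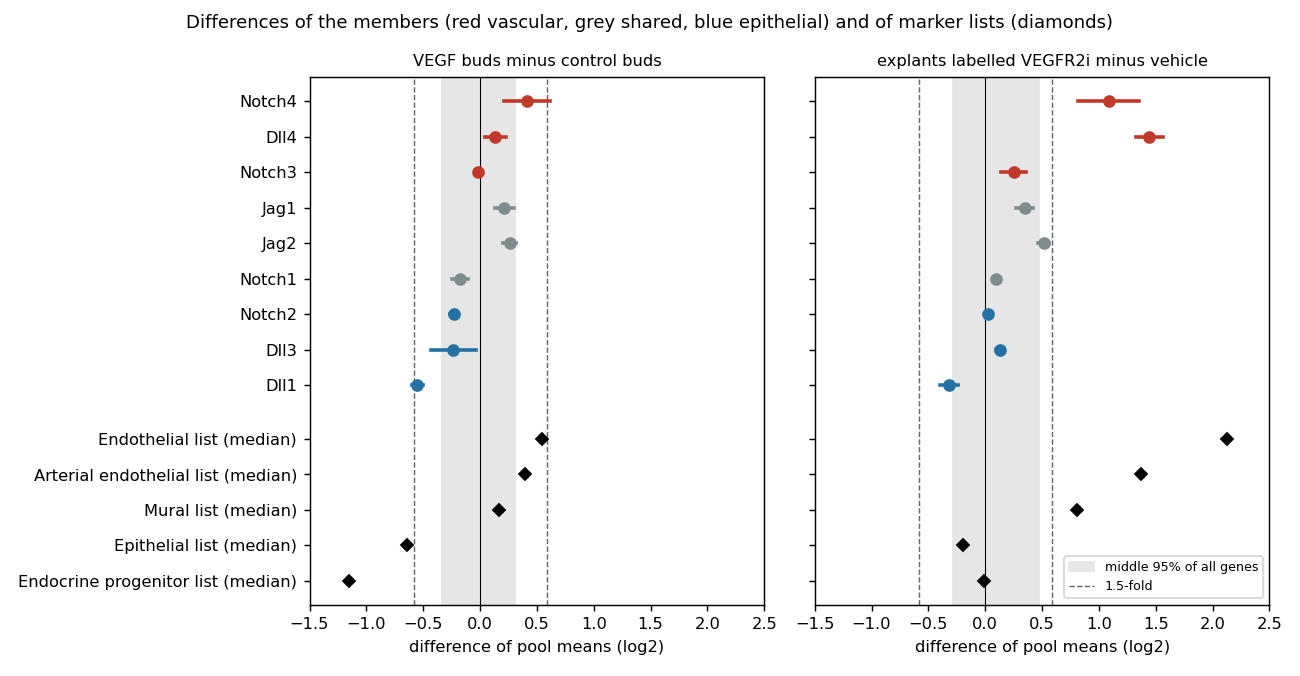
Difference of pool means (horizontal axis, log2) for the 9 members in the fresh buds (left) and the explants as labelled (right). Points are means, coloured bars the range over 4 array pairs, diamonds the median of a marker list, the grey band the middle 95% of all genes and dashed lines 1.5-fold. Dll4 (1.44) and Notch4 (1.09) lie beyond the line on the right and no member does on the left.

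In the explants, Dll4 had the largest difference of the 9. Its arrays read 6.47 and 6.58 under the label VEGFR2i and 5.15 and 5.02 under the label vehicle. The groups were far apart, with a difference of 1.44 [1.32, 1.56], a 2.72-fold higher level. Only 0.251% of all genes had a difference as large in the same direction.

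Notch4 followed, at 5.84 and 6.17 against 5.02 and 4.82. The 2 VEGFR2i arrays differed by 0.33 between themselves, less than their distance to the vehicle arrays. The difference was 1.09 [0.82, 1.35], or 2.12-fold, reached in the same direction by 0.481% of all genes. Dll4 and Notch4 both passed 2-fold with all arrays, and each met the size rule whichever array was left out.

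Notch3, the third vascular member, did not follow them. It read 7.43 and 7.26 against 7.12 and 7.07, a difference of 0.25 [0.14, 0.36]. Of 10 mural markers, 9 had a larger difference than Notch3, and the median of that list was 0.81. The 10 mesenchyme markers, of which 1 was higher and 0 lower, had a median of 0.25, close to the value of Notch3. Which cells gave the Notch3 RNA was not tested. Pdgfrb, the growth factor receptor of pericytes, was higher by 1.15, at 9.77 against 8.62.

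The jagged ligands were again on the positive side. Jag2 read 5.91 and 5.98 with the label VEGFR2i and 5.42 and 5.45 with the label vehicle, a difference of 0.51 [0.46, 0.56] and just under the size rule. Jag1 read 8.96 and 8.90 against 8.63 and 8.54, a difference of 0.35 [0.27, 0.42]. For both genes the arrays of the pools were separate.

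Notch1 and Notch2 were nearly level between the explant pools. Notch1 read 9.05 and 9.06 against 8.99 and 8.93, a difference of 0.10 [0.07, 0.13], and Notch2 read 9.74 on both arrays against 9.73 and 9.71, a difference of 0.02 [0.01, 0.03]. All 16 endothelial markers had a larger difference than Notch1.

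Dll1 was the single member lower in the pool labelled VEGFR2i, with 7.11 and 7.01 against 7.41 and 7.35. The difference was -0.32 [-0.40, -0.24], a 1.25-fold lower level that did not meet the size rule and that 1.93% of all genes reached. Dll3 read 4.54 on both VEGFR2i arrays against 4.44 and 4.38, a difference of 0.13 [0.10, 0.16]. The difference of Dll4 exceeded that of Dll1 by 1.76 [1.62, 1.90].

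Of the 9 members, 2 were higher and none lower by the size rule in the explants. Among all genes 2.19% met the rule, 1.82% higher and 0.371% lower, so the members' share of 22.2% lay above the background, though it counts 2 genes known from the same cell type. The arrays were apart for all 9, 8 higher and 1 lower, as for 51% of all genes, 25.9% higher and 25% lower. The vascular median was 1.09, the shared 0.35 and the epithelial 0.02, against 0.00 over all genes, and the vascular median lay 1.06 above the epithelial one. These medians are the values of Notch4, Jag1 and Notch2, so the gap is not between the same members as in the buds.

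Most endothelial markers differed more than any member. Of 16, 15 were higher and none lower, with a median of 2.13 and a summed level of 11.34 to 11.38 in the VEGFR2i arrays against 8.98 to 9.04 in the vehicle arrays. Dll4 lay below 12 of them and Notch4 below 14. Of 8 arterial markers, which include the Notch targets Hey1 and Hey2, 7 were higher, with a median of 1.37, and Dll4 lay in their middle with 4 above and 4 below. Mural markers were higher in 7 of 10, with summed levels of 12.83 to 12.86 against 12.24 to 12.27. Leukocyte markers were higher in 7 of 8, with a median of 1.00 and summed levels of 9.52 to 9.56 against 8.44 to 8.48. None of 12 epithelial markers was called, with a median of -0.20 and summed levels of 13.52 to 13.55 against 13.69 to 13.72. Dll1 lay below 11 of these 12, and Notch2, of the epithelial class, lay above 11 of them. Of 10 measured acinar markers, 7 were lower and 0 higher, with a median of -0.83 and summed levels of 14.06 to 14.07 against 14.42 to 14.44. Erythroid markers were higher in 2 of 7, with a median of 0.08 and summed levels of 10.17 to 10.20 against 8.22 to 8.26. The 2 were Hbb-y (2.23) and Hba-x (1.62), while others were near the dim end in both pools, such as Rhag at 2.90 against 2.95. None of 9 endocrine progenitor markers was called, with a median of -0.01, and all 9 lay above Dll1. The part of these markers in the members' differences was not tested.

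**Figure D3:**
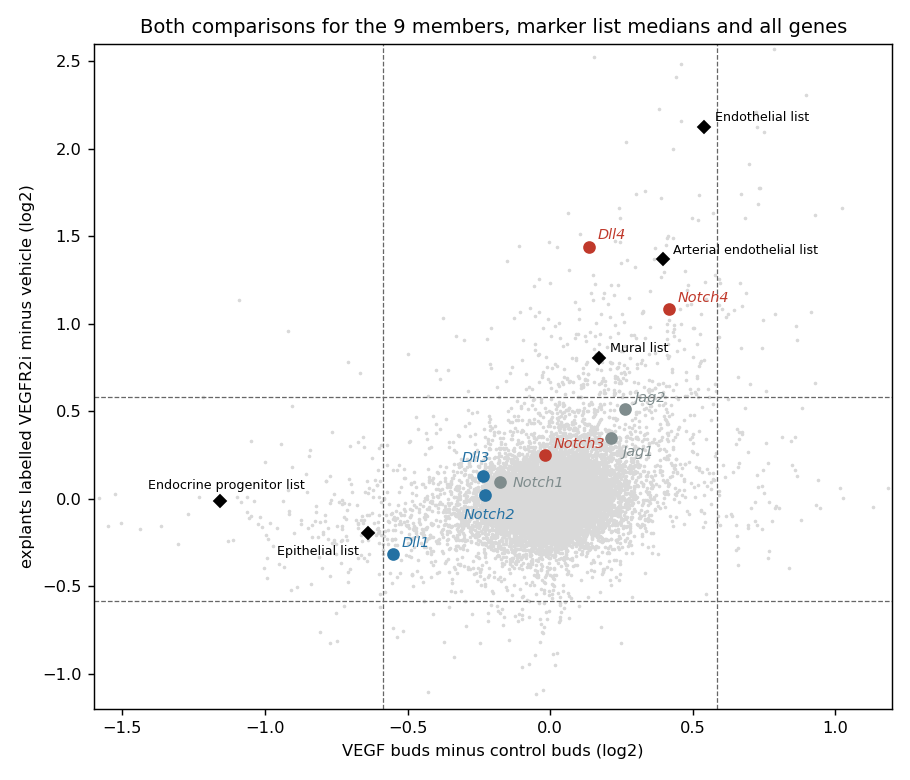
Difference in the explants as labelled (vertical axis, log2) against that in the fresh buds (horizontal axis, log2) for the members (red vascular, grey shared, blue epithelial), marker list medians (diamonds) and all genes (light points, 35 of them outside the drawn range). Dashed lines mark 1.5-fold. Notch4 and Dll4 lie on the side of the endothelial lists and Dll1 beside the epithelial list.

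Side by side, Notch4, Dll4, Jag1 and Jag2 had positive differences in both comparisons and Dll1 a negative one in both. Notch1, Notch2, Notch3 and Dll3 were negative in the buds and positive in the explants, by at most 0.25 in size. The endothelial pair did not keep its order, since the difference of Dll4 fell short of that of Notch4 in the buds, by -0.28 [-0.40, -0.16], and exceeded it in the explants, by 0.36 [0.21, 0.51]. The comparisons share no array. Whether their differences differ was not tested, as each rests on 1 pool per condition.

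Across the 4 pools, levels of fresh buds and explants may rest on separate normalization, and the median of all genes was 0.17 higher in the vehicle explants than in the control buds. Fresh buds and explants also differ in genotype and in 2 days of culture, and these cannot be told apart in any contrast between them. Neighbouring pools in an order are called within the array gap where their means differ by less than the larger gap between the 2 arrays of either pool, even if no arrays overlap. Dll4 ran from the VEGFR2i explants (6.52) to the VEGF buds (5.44), control buds (5.31) and vehicle explants (5.08), the bud pools being within the array gap. Notch4 ran from the VEGF buds (6.49) to the control buds (6.07) and VEGFR2i explants (6.004), which were within the array gap, and then to the vehicle explants (4.92). For Notch4 the VEGFR2i explants differed from the control buds by -0.07 as deposited, -0.27 with array medians subtracted and -0.41 after quantile normalization. That nearness thus depends on the scaling. The Dll4 level of the VEGFR2i explants lay 1.22 above the control buds, and 0.88 to 1.02 above under the 2 other scalings, while the endothelial list had a median of -0.50 and the arterial list of 0.60 in the same contrast. With array medians subtracted those medians were -0.70 and 0.41, and after quantile normalization -0.84 and 0.27.

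Notch3 was highest in the control buds (8.18), close to the VEGF buds (8.16), and lower in the VEGFR2i (7.34) and vehicle explants (7.10). Its vehicle level was -1.08 against the control buds, where the mural list had a median of -0.56, both as deposited. Jag1 had the order VEGF buds (9.49), control buds (9.28), VEGFR2i explants (8.93), vehicle explants (8.58), each step larger than the array gap. Jag2 ran from the VEGFR2i explants (5.95) and VEGF buds (5.89), within the array gap, to the control buds (5.63) and vehicle explants (5.43). Its VEGFR2i level against the control buds was 0.31 as deposited but -0.01 after quantile normalization of all 8 arrays. Against the VEGF buds it was 0.05 as deposited, -0.17 with array medians subtracted and -0.30 after quantile normalization, so neither step has a settled direction.

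Dll1 and Dll3 were higher in the explants. Dll1 ran from the vehicle (7.38) to the VEGFR2i explants (7.06), control buds (6.15) and VEGF buds (5.59), with all steps beyond the array gap. The Dll1 vehicle level was 1.23 above the control buds as deposited, 1.02 with array medians subtracted and 0.92 after quantile normalization. Dll3 ran from 4.54 and 4.41 in the VEGFR2i and vehicle explants to 3.70 and 3.46 in the control and VEGF buds, where the bud pools were within the array gap. As deposited, the endocrine progenitor list had a median of 2.46 in the vehicle explants against the control buds and Neurog3 stood at 9.92 against 7.08.

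Notch1 ran from 9.05 in the VEGFR2i and 8.96 in the vehicle explants to 8.67 in the control and 8.50 in the VEGF buds. Its vehicle level was 0.28 above the control buds as deposited, 0.07 with array medians subtracted and -0.03 after quantile normalization of all 8 arrays, so the direction of that contrast is not settled. Against the VEGF buds the VEGFR2i explants were 0.56 higher, and 0.34 and 0.25 higher under those scalings. Notch2 as deposited was at 9.96 in the control buds and between 9.72 and 9.74 in the other pools. That nearness depends on the scaling, since the VEGFR2i explants differed from the VEGF buds by 0.01 as deposited, -0.21 with array medians subtracted and -0.30 after quantile normalization. The vehicle explants differed from the control buds by -0.24, -0.45 and -0.53 in the same order. The epithelial list had medians of 1.44, 1.23 and 1.13 there, so Notch2 did not move with the markers of its class in that contrast.

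Genes with the most similar pattern were sought for the called members, by the root mean square difference over the 8 arrays after centring within the buds and within the explants. For Dll4 they were the transcription factor Ets1 (0.06), the leukocyte protein Laptm5 (0.07) and the potassium channel Kcnj2 (0.07), and 17 genes were closer than the 0.12 by which the paired arrays of Dll4 itself differed. For Notch4 they were Adam15 (0.11), the angiopoietin receptor Tek (0.11) and the ion channel Piezo2 (0.12). There 290 genes lay within the 0.24 of its own arrays, so the order among them carries little weight.

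The rest of the pathway was read from a list of 45 genes, of which 44 were measured. In the buds 0 of 44 met the size rule, against 1.48% of all genes, and the median difference was 0.01. In the explants 5 of 44, or 11.4%, were higher, against 1.82% of all genes, and none lower, with a median of 0.05. These were 4 of 8 genes listed as targets and 1 of 5 genes of glycosylation.

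Hey1, a repressor that Notch induces in endothelium, had the largest difference of them. It read 6.40 and 6.01 on the VEGFR2i arrays and 4.68 and 4.73 on the vehicle arrays, a difference of 1.502. In the buds it read 6.21 and 6.22 in the VEGF pool against 5.83 and 5.78, a difference of 0.41 and close to that of Notch4.

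Hey2, its relative in arteries and heart, was at 4.78 against 3.97 in the explants, a difference of 0.80, and differed by 0.08 in the buds. Heyl, the family member of mural cells, was higher by 0.63, at 6.61 against 5.99. Nrarp, a feedback inhibitor that Notch induces, was higher by 0.62, at 7.48 against 6.86. These last 2 lay close to the limit. Nrarp was at 0.58 without the first VEGFR2i array, and Heyl at 0.56 and Nrarp at 0.58 without the second vehicle array, under the size rule.

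Hes1, the Notch target that holds back endocrine fate in the pancreatic epithelium, was not called in either comparison. It was at 8.17 against 8.42 in the buds, a difference of -0.25, and at 9.03 against 8.84 in the explants, a difference of 0.18. Hes6, listed with the targets though known as a gene switched on in committed endocrine cells, had the lowest difference of that list in the buds. It was at 6.39 against 6.75, a difference of -0.36.

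Mfng, a glycosyltransferase that alters how receptors respond to delta and jagged ligands, was higher in the explants by 0.76, at 6.94 against 6.18, and differed by 0.02 in the buds. Its relatives Lfng and Rfng differed by 0.04 and 0.09 in the explants. Of the 9 measured genes of receptor cleavage none passed 0.18 in size in either comparison, with Ncstn, a gamma-secretase subunit, at -0.14 in the buds and Furin at 0.18 in the explants.

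Of the 8 genes of the nuclear complex the coactivator Maml2 was farthest from 0, with 0.21 in the buds and 0.35 in the explants, and Rbpj itself differed by 0.02 and 0.14. Among 7 inhibitors and turnover genes, Dtx4 differed by -0.32 in the buds and Dtx3 by 0.44 in the explants. Mib1, the ligase that lets cells internalise their ligands, differed by 0.03 and -0.10. Of the 3 non-canonical ligands, Dner differed by 0.23 and Dlk2 by -0.23 in the explants, and Dlk1 was at 11.41 against 11.40 in the buds.

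**Figure D4:**
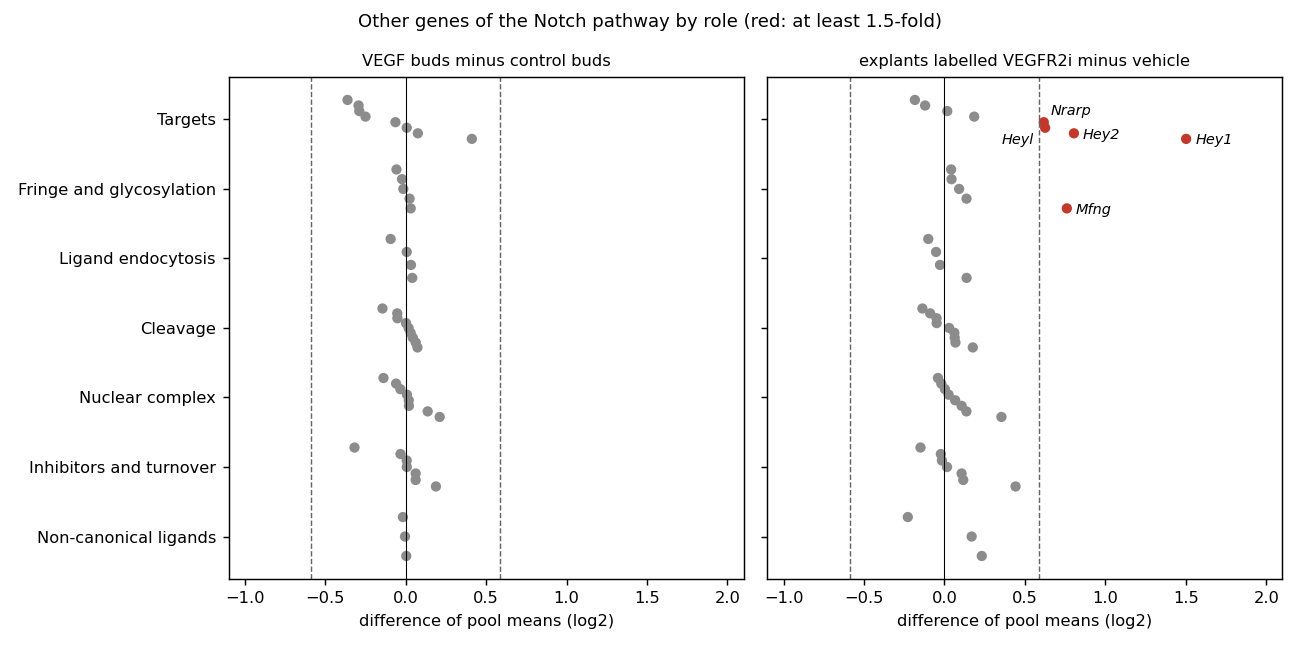
Difference of pool means (horizontal axis, log2) for 44 other Notch pathway genes by role, in the fresh buds (left) and the explants as labelled (right). Red points met the size rule and dashed lines mark 1.5-fold. Hey1, Hey2, Heyl, Nrarp and Mfng lie beyond the line in the explants and no gene does in the buds.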

How the data were processed

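Each of the 4 groups was 1 RNA pool on 2 arrays, and groups came from the labels alone. The authors deposited log2 expression for each probe set, which the series' design text says came from RMA (robust multi-array averaging) run with version 6.5 of Partek Genomic Suite. RMA gives arrays a common distribution, so a shift common to most genes can be lost, and it shrinks differences of dim genes. Whether buds and explants were normalized together is not given in these sources. That values are log2 follows from their range, 2.41 to 13.57. Precision is limited by the single pool per condition, since the second array repeats only the hybridization.

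Of 35399 probe sets, 21789 had exactly 1 symbol in the platform annotation, and for the 999 genes with several the one with the highest mean stood for the gene. A further 6 probe sets named Notch4 together with another gene and were not used. Pools were compared by the size rule, in Python 3.11.15 with pandas 2.3.3 and scipy 1.17.1. The rule was run on simulated data with planted changes of 2-fold or more and hybridization error only. That run says nothing of changes near 1.5-fold or of variation between pools. The design text names a t-test. Run on the arrays it measures hybridization only, and is given as an alternative. Other alternatives were the probe set choice, 2 scalings, 2-fold, a filter on low levels and leaving out each array. Named were all members, pathway genes past the size rule or largest in their role, leading markers, and the 3 closest patterns. Pdx1, Epcam, Hes1, Rbpj, Lfng, Rfng, Mib1, Dlk1, Pdgfrb and the GGAA motif were added after values were seen. Members and lists were chosen with earlier results of these data known.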

Additional observations from a re-analysis of the deposited data

How the results depend on the processing

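Each member has 1 singly named probe set, so the choice of probe set could not change it. Of 108 member differences recomputed under the other alternatives, 1 changed sign, that of Notch3 in the buds, which was near 0. Apart from the adjusted t-test given next, the count of members past the size rule was 2 in the explants under every alternative run. In the buds it was 0 except without the first VEGF array, so that it ranged from 0 to 1 over the left-out arrays. With 1.5-fold, the methods' t-test over arrays called 0 and 2 members in buds and explants without adjustment and 0 and 0 after Benjamini-Hochberg adjustment. At 2-fold, 50 of all genes were called in the buds and 133 in the explants, and the pathway count in the explants was 1, by construction of a stricter limit. With an array left out the pathway count in the explants ranged from 3 to 5. The gap between the vascular and epithelial medians ranged from 0.31 to 0.54 in the buds, the highest without the second control array, and from 0.90 to 1.23 in the explants. In the vehicle explants against the control buds, quantile normalization turned Notch1 from 0.28 to -0.03, and the other 8 members kept their sign. In the VEGFR2i explants the scalings also turned Jag2 against either bud pool and Notch2 against the VEGF buds. No paired analysis was possible because each group is 1 pool and its second array is a technical repeat. Small differences of dim genes such as Dll3 are limited by signal near the bottom of the array's range.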
